A study of Mus musculus with 17 samples.

Results

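Round spermatids (RS) were set against pachytene/diplotene spermatocytes (PD) of the mouse testis. The comparison uses 6 of the 17 sequenced samples, 3 RS and 3 PD libraries, which were chosen by their labels alone. Both groups came from wild-type C57BL/6JRj males aged 3 months, and no transgene or treatment is labelled for them. Testes were digested with collagenase and then trypsin, cells were stained with the nucleic acid dyes Hoechst and SYTO, and both populations were sorted by flow cytometry before total RNA was sequenced. The juvenile round spermatid library and the Prm1-EGFP reporter library of the series are not analysed here. The labels give no animal for a library and do not say whether animals were pooled, so p-values measure no more than how far these libraries spread, and that spread may be technical. Levels in leptotene/zygotene spermatocytes (LZ) and in spermatids at early (EES) or late (LES) elongation, 3 libraries each, are given beside some genes as a description.

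In pachytene, homologous chromosomes are synapsed and recombine. At that stage the unsynapsed X and Y chromosomes are silenced in the sex body, which is known as meiotic sex chromosome inactivation. The meiotic divisions then give haploid round spermatids, which form the acrosome from the Golgi, begin the flagellum, and later exchange histones for transition proteins and protamines. Transcription in spermatids is known to depend on germ cell regulators such as CREM, RFX2 and SOX30, and many spermatid messages are made early and stored.

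Libraries held 107.9, 137.8 and 132.5 M reads in RS and 110.1, 122.4 and 137.3 M reads in PD, where M stands for mega. Reads that fell in annotated genes were 74.58 to 80.39% in RS and 73.44 to 77.03% in PD. Levels are in RPKM, which divides reads by exon length in kilobases and by depth in M reads, and 9976 to 10147 genes reached 1 RPKM in RS libraries, against 9222 to 9316 in PD libraries. Spearman correlations across genes were 0.975 to 0.981 among RS libraries, 0.972 to 0.975 among PD libraries and 0.889 to 0.928 between the groups.

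The labels were checked against 4 marker genes. Acrv1, which encodes an acrosomal vesicle protein, had 33.5, 26.1 and 35.7 RPKM in RS libraries and 0.627, 0.930 and 1.85 RPKM in PD libraries. Spaca1, a membrane protein of the acrosome, had 63.9, 56.4 and 57.2 RPKM in RS and 0.950, 1.04 and 2.57 RPKM in PD. Hipk4, a kinase needed for spermatid head shaping, had 46.9, 55.0 and 51.0 RPKM in RS and 0.593, 0.459 and 1.49 RPKM in PD. All RS libraries were far above all PD libraries for these 3 genes, and PD replicate 3 was the highest of the PD libraries each time. Pou5f2, a POU transcription factor of meiotic cells, went the other way, with 3.02, 3.61 and 3.05 RPKM in RS against 130, 121 and 141 RPKM in PD. The log2 fold changes (RS minus PD, ± SE) were 4.92 ± 0.35 for Acrv1, 5.42 ± 0.34 for Spaca1, 6.08 ± 0.38 for Hipk4 and -5.34 ± 0.13 for Pou5f2, and all 4 passed the test. Because these are bulk samples, fewer cells of a type and less RNA per cell cannot be told apart here or in what follows.

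Sums of wider marker lists gave the same order, though for the pachytene/diplotene list this rests on the linker histone H1f6. The 10 round spermatid markers summed to 365.6, 398.8 and 414.7 RPKM in RS and 10.6, 11 and 22.8 RPKM in PD, and 10 of 10 rose. The 10 pachytene/diplotene markers summed to 1980, 1970 and 1952 RPKM in RS and 3187, 2978 and 2825 RPKM in PD. H1f6 alone made up 1339, 1175 and 738 RPKM of the PD sums and 11.1, 13.5 and 8.79 RPKM of the RS sums. Without it the sums of the groups overlap. Of the 10 markers, 5 fell, 1 rose and 4 were neither, so part of this list was as high in RS as in PD. Whether such messages were kept from spermatocytes or made in spermatids was not tested. Elongating spermatid markers summed to 974.9, 1413 and 1908 RPKM in RS, and to 96.8, 80.7 and 299.2 RPKM in PD. Somatic signal was low: 15 Sertoli markers summed to 3.47 to 4.09 RPKM in RS and 1.99 to 2.25 RPKM in PD, with 0 of 15 above the filter. Leydig and myoid markers summed to 1.53 to 1.75 RPKM in RS and 2.17 to 2.76 RPKM in PD. Immune, blood and endothelial markers summed to 4.92 to 5.54 RPKM in RS and 2.37 to 2.92 RPKM in PD, and Csf1r, the member that was tested and rose, was at 3.05 ± 0.184 RPKM in RS and 1.01 ± 0.0999 RPKM in PD (SD, n = 3).

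**Figure D1:**
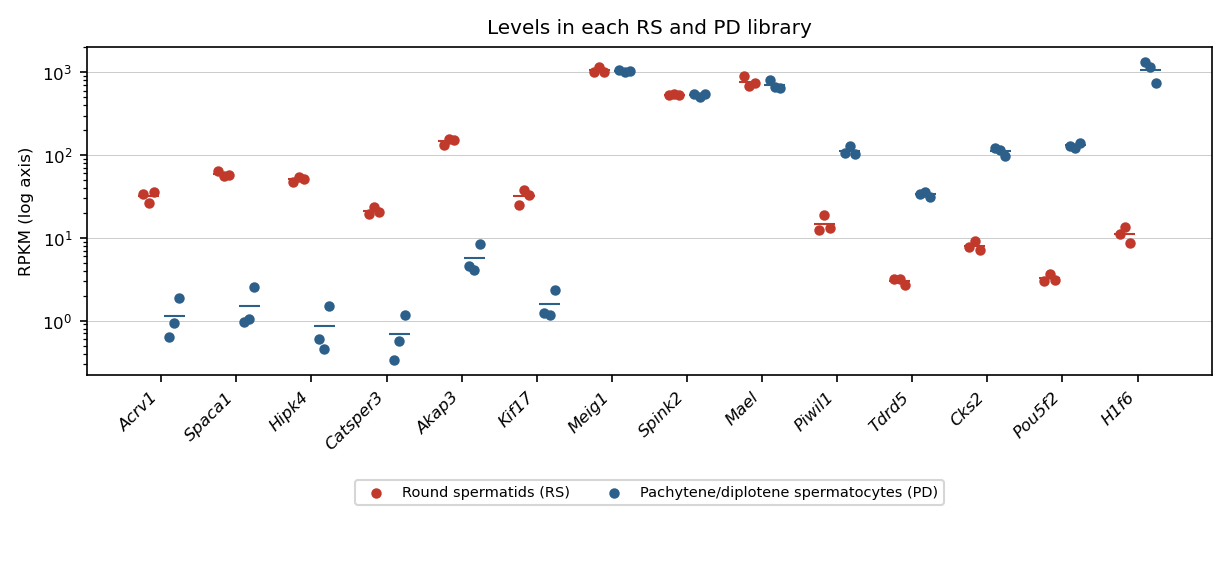
RPKM on a log axis for 14 genes in each library, RS (red, left) and PD (blue, right), with a line at the mean of the 3 libraries. Meig1, Spink2 and Mael overlap between the groups, the 6 genes on the left are higher in RS, and the 5 on the right, Piwil1, Tdrd5, Cks2, Pou5f2 and H1f6, are lower in RS.

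With limma, 10635 of the 24594 genes were tested, namely those at 1 RPKM or more in 3 or more of the 6 libraries. A gene was called with a Benjamini-Hochberg adjusted p under 0.05 and a log2 fold change of 1 or more in size. By this rule 2463 genes rose in RS, which is 23.2% of those tested, and 1811 fell, which is 17%. A further 6361 were neither. At any size of change 7332 genes had an adjusted p under 0.05, and the libraries of RS and PD did not overlap for 74.2% of the tested genes, so separation of the groups alone says little about a gene. Large changes were mostly rises, since a log2 change of 3 or more was seen for 1418 rises and 162 falls. The split of the calls depended on the scaling: rises were 57.63% of the calls as deposited, 55.89% after scaling to reads in genes, 50.48% after centring each library on its median and 45.41% after quantile normalization. Over all tested genes the median log2 fold change lay at -0.02 as deposited and at -0.06, -0.19 and -0.21 under those 3 scalings, so small changes have no firm direction. The filter also matters, because 1524 tested genes had a PD mean under 1 RPKM and so passed through their RS level, and such genes had to be higher in RS. The same holds in the other direction for 738 genes with an RS mean under 1 RPKM.

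**Figure D2:**
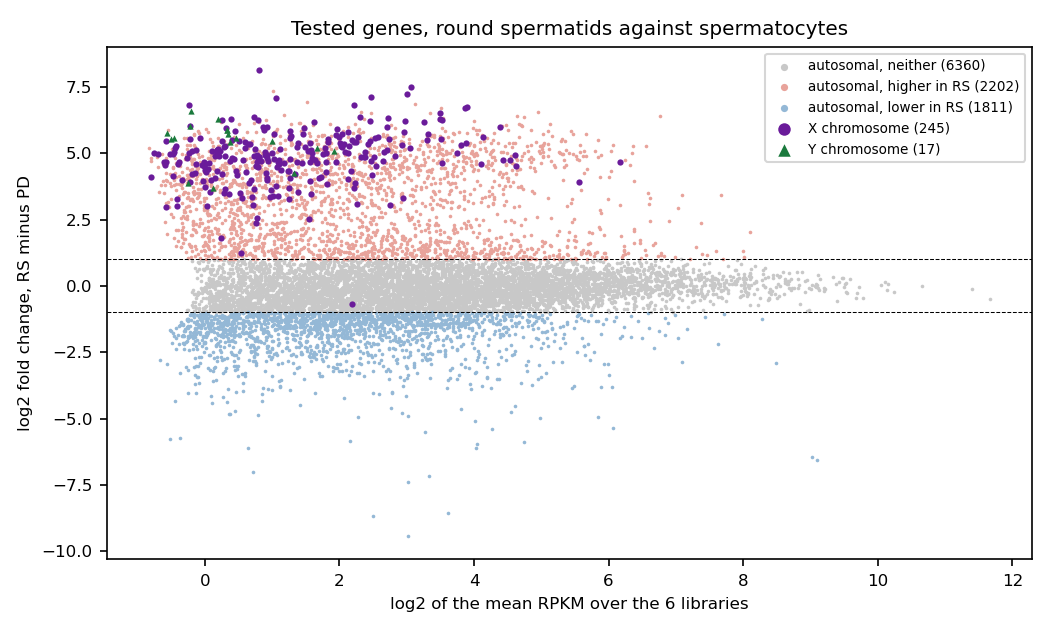
Log2 fold change (RS minus PD) of the 10635 tested genes against the log2 of their mean RPKM over the 6 libraries, with dashed lines at 1 and -1. Points of X genes (purple) and Y genes (green) lie in a band around a log2 fold change of 5, and autosomal genes spread on both sides of 0.

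The PD libraries did not carry the spermatid genes to the same extent. Over the 1418 genes with the large rises, the median level relative to the RS mean was 2.90% in PD replicate 1, 3.37% in PD replicate 2 and 6.80% in PD replicate 3. PD replicate 3 was the highest PD library for 1257 of them. Its summed round spermatid markers were 5.79% of the RS mean, against 2.70% and 2.80% in PD replicates 1 and 2, and its summed elongating spermatid markers were 20.9%, against 6.76% and 5.64%. The part of these markers in the fold changes was not tested. Without PD replicate 3, 2527 genes rose and 1906 fell. Counts of some gene lists without it are given below, and leaving it out of the lists was chosen after seeing the data.

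Many transcription regulators of spermatids rose, with 15 of the 28 tested members up and 2 down, 53.6% and 7.14% beside 23.2% and 17% of all tested genes, and a median log2 fold change of 1.48, beside -0.02 for all tested genes. The coactivator Fhl5, which binds CREM, had 27.1, 17.9 and 36.3 RPKM in RS and 1.13, 1.34 and 2.61 RPKM in PD. Kif17, a kinesin that moves FHL5 between nucleus and cytoplasm, had 24.7, 37.4 and 33.3 RPKM in RS and 1.23, 1.17 and 2.33 RPKM in PD. Both were higher in all RS libraries, with log2 fold changes of 4.03 ± 0.35 and 4.38 ± 0.28. Crem itself, named here after its values were seen, had 43.0, 33.4 and 44.3 RPKM in RS and 25.9, 23.0 and 25.9 RPKM in PD. Its groups did not overlap, but its log2 change of 0.68 ± 0.14 was under the fold threshold (limma adjusted p = 0.00234). Sox30 and Rfx2, also named after their values were seen, had means of 12.2 and 46.1 RPKM in RS and 8.69 and 37.0 RPKM in PD, with log2 changes of 0.48 ± 0.13 and 0.29 ± 0.17 that were not called. Messages of these 3 regulators were thus present in both groups, whereas Rfx3, another RFX factor, rose to 2.41 ± 0.490 RPKM in RS against 0.542 ± 0.0306 RPKM in PD (SD, n = 3), a log2 change of 2.11 ± 0.22.

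Other regulators differed in their PD level. Foxj1, a forkhead factor that drives motile cilia genes, had 70.5, 71.7 and 59.8 RPKM in RS and 1.01, 0.885 and 1.72 RPKM in PD, a log2 change of 5.85 ± 0.24. Nutm1, which recruits the acetyltransferase p300 in spermatids, had 26.1, 39.2 and 30.7 RPKM in RS and 0.338, 0.436 and 1.01 RPKM in PD. The chromatin remodeller Chd5 reached 10.5 ± 2.63 RPKM in RS and 0.677 ± 0.285 RPKM in PD (SD, n = 3), and Spz1, a basic helix-loop-helix zipper protein, reached 156 ± 21.2 RPKM in RS and 10.8 ± 5.46 RPKM in PD. The bromodomain protein Brdt and the TATA-binding protein relative Tbpl1 were level at 45.8 and 154 RPKM in RS and 50.6 and 122 RPKM in PD, and were not called. The orphan receptor Nr2c2 fell to 4.96 ± 0.0175 RPKM in RS against 19.98 ± 2.84 RPKM in PD, and the general factor Taf7 fell to 5.16 ± 0.248 RPKM in RS against 11.6 ± 0.600 RPKM in PD. Its X-linked relative Taf7l rose, with 8.80, 8.17 and 8.85 RPKM in RS against 0.344, 0.426 and 0.483 RPKM in PD. Taf7 was not called when all 15 libraries of the 5 stages shared an estimate of the spread.

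Promoters of 5 genes are printed because they carry the letters that cyclic AMP response element (CRE), RFX, SOX and MYB factors are known to bind. They come from RefSeq on GRCm38.p6 and run 250 bases before to 50 after the annotated start, 5′ to 3′ on the gene's strand, which is the plus strand for all 5. Capitals mark TGACGTCA (CRE), GTTGCC (RFX), CCATTGT, which is ACAATGG (SOX) on the opposite strand, and GGCAGTT (MYB). The starts used for Spag6 and Piwil1 lie inside the annotated span of those genes.
Acrv1, chr9:36692970-36693269: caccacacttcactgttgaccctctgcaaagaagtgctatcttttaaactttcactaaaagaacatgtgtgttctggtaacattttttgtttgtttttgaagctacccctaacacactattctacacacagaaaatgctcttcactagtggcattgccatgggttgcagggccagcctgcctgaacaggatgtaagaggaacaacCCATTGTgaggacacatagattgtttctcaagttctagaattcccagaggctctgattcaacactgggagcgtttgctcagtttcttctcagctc
Spag6, chr2:18698772-18699071: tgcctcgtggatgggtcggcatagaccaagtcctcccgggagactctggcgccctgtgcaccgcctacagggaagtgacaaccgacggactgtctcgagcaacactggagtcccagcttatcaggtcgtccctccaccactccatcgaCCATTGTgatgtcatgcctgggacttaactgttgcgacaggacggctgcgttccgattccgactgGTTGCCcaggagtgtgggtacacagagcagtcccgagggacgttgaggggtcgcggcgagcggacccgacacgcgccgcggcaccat
Kif17, chr4:138262001-138262300: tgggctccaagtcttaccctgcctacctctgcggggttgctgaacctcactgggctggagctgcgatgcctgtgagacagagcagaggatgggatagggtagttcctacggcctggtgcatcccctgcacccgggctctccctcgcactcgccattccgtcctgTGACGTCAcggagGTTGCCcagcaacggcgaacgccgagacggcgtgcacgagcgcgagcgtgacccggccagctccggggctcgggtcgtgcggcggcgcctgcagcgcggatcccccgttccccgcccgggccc
Izumo1, chr7:45621561-45621860: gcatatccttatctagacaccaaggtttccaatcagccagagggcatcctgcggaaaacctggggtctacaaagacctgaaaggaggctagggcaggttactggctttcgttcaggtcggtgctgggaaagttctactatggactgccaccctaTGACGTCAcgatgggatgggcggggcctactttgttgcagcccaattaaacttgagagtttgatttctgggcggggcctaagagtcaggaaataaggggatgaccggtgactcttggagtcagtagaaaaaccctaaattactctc
Piwil1, chr5:128735996-128736295: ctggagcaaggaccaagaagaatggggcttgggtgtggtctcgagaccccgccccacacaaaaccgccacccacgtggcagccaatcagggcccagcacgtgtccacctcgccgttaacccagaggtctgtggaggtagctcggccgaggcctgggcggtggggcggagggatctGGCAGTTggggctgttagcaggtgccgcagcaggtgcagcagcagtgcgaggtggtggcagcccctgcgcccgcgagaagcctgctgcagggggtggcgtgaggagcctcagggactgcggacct

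Shares of such letters in the promoters of risen and fallen genes are given as a description with no test. RefSeq promoters were found for 8403 tested genes (10456 promoters), of which 2465 promoters belong to genes that rose and 1698 to genes that fell. ACAATGG, on either strand, was in 6.13% of promoters of genes that rose, 1.18% of those that fell, 2.73% of all tested promoters and 3.66% of the 32851 promoters in the table. Of the 276 tested genes that hold it, 145 rose, which is 52.5% beside 23.2% of all tested genes, and 20 fell. Base composition moves with this, since the median GC content was 54.7% in promoters of genes that rose and 60% in those of genes that fell, and its part was not tested. With a GC content of 50% or more the shares were 5.37% for risen and 0.956% for fallen genes, and below 50% they were 7.79% and 2.56%. GTTGCC, on either strand, was in 18.9% of promoters of genes that rose, 11.3% of those that fell, 14.8% of all tested and 12.5% of the table. TGACGTCA was at 3.57%, 2.77%, 3.48% and 1.79% in the same order, and GGCAGTT at 4.50%, 4.65%, 4.41% and 4.12%. CCAAT was in 40.8%, 40.5%, 38.98% and 37.4%. A match is not a binding site, and TGACGTCA and GTTGCC lie 5 bases apart in Kif17 without overlapping.

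Some genes of the acrosome were far higher in RS, and others were level in both groups. Of 34 tested genes for acrosome contents, 17 rose and 1 fell, 50% and 2.94% beside 23.2% and 17% of all tested genes, with a median log2 fold change of 2.41. Those that rose had log2 changes of 4.05 to 5.54. Spaca3 and Lyzl4, which resemble lysozyme, reached 80.1 ± 8.42 and 31.1 ± 2.33 RPKM in RS, against 2.54 ± 1.37 and 0.883 ± 0.549 RPKM in PD (SD, n = 3). Spaca7, which is released from the acrosome, had a mean of 62.0 RPKM in RS and 1.85 RPKM in PD, a log2 change of 5.28 ± 0.41. In contrast Spink2, which inhibits acrosomal proteases, had 534 ± 11.99 RPKM in RS and 535 ± 31.9 RPKM in PD, and Dkkl1, an acrosomal protein, had 534 ± 54.0 RPKM in RS and 554 ± 36.4 RPKM in PD. Crisp2, a cysteine-rich secretory protein, was similar at 578 ± 132 RPKM in RS and 597 ± 57.1 RPKM in PD. The groups overlapped for these 3 genes. The member that fell was Tex101, a surface protein of germ cells needed for ADAM3 to mature, with 9.45 ± 2.91 RPKM in RS and 69.9 ± 20.4 RPKM in PD.

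Of 40 tested genes for acrosome biogenesis, 14 rose and 4 fell, 35% and 10% beside 23.2% and 17% of all tested genes. The list median was 0.16, but it was -0.02 after median centring, so the list as a whole has no firm direction. Among the rises, Actl7a, an actin relative, reached 95.3 ± 12.5 RPKM in RS against 3.55 ± 2.07 RPKM in PD, and Fam209 reached 74.5 ± 6.29 RPKM in RS against 2.60 ± 1.77 RPKM in PD. Actl7b, another actin relative and among the 10 risen genes with the highest RS level, had 415, 468 and 433 RPKM in RS and 111, 101 and 111 RPKM in PD. Vesicle traffic genes were among those that fell. Gopc, the Golgi protein whose loss gives round-headed sperm, fell to 1.49 ± 0.0990 RPKM in RS against 6.49 ± 0.502 RPKM in PD, a log2 change of -2.12 ± 0.14. The syntaxin Stx12 and the tethering factor Vps54 had log2 changes of -1.53 and -1.68. Dpy19l2, of the nuclear envelope under the acrosome, and Spata16, of the Golgi, were level at 103 and 316 RPKM in RS and 88.2 and 327 RPKM in PD.

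Genes for sperm-egg interaction gave 24 rises and 2 falls among 40 tested members, 60% and 5% beside 23.2% and 17% of all tested genes, with a median log2 fold change of 3.63. Izumo1, the sperm protein that binds the egg receptor JUNO, had 13.7, 19.2 and 17.98 RPKM in RS and 0.395, 0.491 and 0.927 RPKM in PD, so all RS libraries were above all PD libraries. Its log2 change was 4.87 ± 0.30. Dcst1 and Dcst2, needed for fusion, reached 11.7 ± 1.21 and 21.8 ± 4.999 RPKM in RS and 0.399 ± 0.236 and 0.586 ± 0.288 RPKM in PD. Llcfc1, also needed for fusion, had a mean of 108 RPKM in RS and 3.76 RPKM in PD, and Izumo3 had 54.3 RPKM in RS and 1.69 RPKM in PD. Members of the ADAM family differed: Adam20, Adam25 and Adam26a, on chromosome 8, rose by 5.04, 5.13 and 5.31 on the log2 scale, while Adam3 and Adam5, also on chromosome 8, had means of 455 and 289 RPKM in RS and 379 and 381 RPKM in PD and were not called. Close copies among these genes can exchange reads, so single members of the family are uncertain.

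Of 40 tested genes for axonemal dyneins and their assembly, 3 rose, 7 fell and 30 were neither, shares of 7.5% and 17.5% beside 23.2% and 17% of all tested genes. The list median of 0.14 turned to -0.04 after median centring. Dnah8, a heavy chain of sperm outer dynein arms, had 71.7, 84.0 and 87.1 RPKM in RS and 154, 178 and 185 RPKM in PD. It fell by 1.09 on the log2 scale, but was not called when all 15 libraries entered the fit. Dnaaf4, a dynein assembly factor, fell to 10.5 ± 2.53 RPKM in RS against 34.1 ± 2.15 RPKM in PD. Dnah3, an inner arm heavy chain, rose to 11.4 ± 2.56 RPKM in RS against 0.731 ± 0.297 RPKM in PD, a log2 change of 4.01 ± 0.32. Among 46 genes of the central pair and radial spokes, 9 rose and 1 fell, and without PD replicate 3 11 rose. The shares of 19.6% and 2.17% were both below the 23.2% and 17% of all tested genes. High members were present in both groups: Rsph1, a spoke head protein, had 550 ± 149 RPKM in RS and 796 ± 76.4 RPKM in PD, and Cfap206 had 481 ± 19.2 RPKM in RS and 341 ± 25.95 RPKM in PD, neither of them called.

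Central pair gene Spag6 was among the 12 largest rises of protein-coding genes with a mean of at least 32 RPKM in RS. It had 89.8, 84.2 and 82.8 RPKM in RS and 1.13, 0.994 and 2.84 RPKM in PD, with no overlap and a log2 change of 5.85 ± 0.35. Ropn1, a ropporin of the fibrous sheath, had 72.5, 74.4 and 85.5 RPKM in RS and 2.29, 2.12 and 4.91 RPKM in PD, whereas its relative Ropn1l had 841 ± 65.4 RPKM in RS and 699 ± 20.2 RPKM in PD and was not called. The pair shows how members of a structure differed in whether PD cells already held the message.

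Microtubule inner proteins of the doublets moved up together, with 19 rises (63.3%) and 0 falls among 30 tested genes. The shares of all tested genes were 23.2% and 17%. After median centring 16 rose, and the median log2 fold change as deposited was 1.33. Tekt4, a tektin filament protein, had 258, 292 and 282 RPKM in RS and 49.5, 48.0 and 64.0 RPKM in PD, a log2 change of 2.38 ± 0.13, and was not called in the fit of all 15 libraries. Ribc1 on the X chromosome had 33.3, 46.7 and 43.0 RPKM in RS and 0.323, 0.528 and 1.49 RPKM in PD. Tex33 had 147, 209 and 195 RPKM in RS and 3.50, 3.45 and 8.13 RPKM in PD. Meig1, which is needed for the manchette, was among the most abundant messages of both groups at 1066 ± 89.0 RPKM in RS and 1046 ± 33.3 RPKM in PD, and overlapped between them.

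Outer dense fibre and fibrous sheath genes gave 18 rises (56.2%) and 0 falls among 32 tested, beside 23.2% and 17% of all tested genes. Their median was 3.18. Akap3, a fibrous sheath scaffold for protein kinase A, had 131, 156 and 152 RPKM in RS and 4.63, 4.07 and 8.42 RPKM in PD, a log2 change of 4.75 ± 0.25. Odf1, the main outer dense fibre protein, had 93.5, 139 and 140 RPKM in RS and 4.32, 3.67 and 13.8 RPKM in PD. Both were higher in all RS libraries and PD replicate 3 was the highest of PD, and both had more in EES, where their means were 340 and 2331 RPKM. Fibrous sheath and fibre genes without a call were abundant in both groups, such as Gstm5 at 1172 ± 38.6 RPKM in RS and 1104 ± 96.5 RPKM in PD.

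Intraflagellar transport and BBSome genes had 6 rises and 5 falls among 39 tested, shares of 15.4% and 12.8% that are below those of all tested genes. Bbs12 and Bbs5 rose to 4.99 ± 0.453 and 16.5 ± 1.36 RPKM in RS, against 0.350 ± 0.0520 and 3.58 ± 0.126 RPKM in PD. Kifap3, the kinesin-2 adaptor, rose to 44.9 ± 4.76 RPKM in RS against 17.1 ± 0.300 RPKM in PD. Ift80 and Ift20 fell to 6.27 ± 0.334 and 14.6 ± 2.21 RPKM in RS, against 18.5 ± 0.467 and 44.2 ± 3.02 RPKM in PD. Manchette and head-tail coupling genes had 19 rises and 3 falls among 44 tested, 43.2% and 6.82% beside 23.2% and 17% of all tested genes. Sun5, which anchors the coupling apparatus to the nucleus, rose to 28.2 ± 2.73 RPKM in RS against 1.21 ± 0.610 RPKM in PD, and Pmfbp1, of the same apparatus, to 54.1 ± 10.8 RPKM in RS against 2.74 ± 1.84 RPKM in PD.

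The CatSper channel was split by subunit. Of the pore subunits, Catsper1 had 14.98, 28.0 and 23.8 RPKM in RS and 0.469, 0.500 and 1.28 RPKM in PD. Catsper3 had 19.3, 23.7 and 20.3 RPKM in RS and 0.334, 0.570 and 1.17 RPKM in PD, and Catsper4 had 28.6, 42.3 and 33.9 RPKM in RS and 0.631, 0.712 and 1.72 RPKM in PD. These 3 rose by 4.99, 5.09 and 5.21 on the log2 scale. Catsper2, the remaining pore subunit, had 97.7, 129 and 110 RPKM in RS and 61.6, 64.2 and 92.9 RPKM in PD. Its groups did not overlap, but its log2 change of 0.64 ± 0.18 was not called. Among the auxiliary subunits, Efcab9, a calcium sensor, reached 92.6 ± 12.01 RPKM in RS against 2.63 ± 1.69 RPKM in PD, while its partner Catsperz was level at 413 ± 22.2 RPKM in RS and 436 ± 38.0 RPKM in PD. Catspere1 went the other way, with 25.3, 10.4 and 15.6 RPKM in RS and 56.3, 60.8 and 71.5 RPKM in PD, a log2 change of -1.97 ± 0.28. The list of channels and transporters as a whole had 10 rises and 4 falls among 31 tested, 32.3% and 12.9% beside 23.2% and 17% of all tested genes, and a median of 0.01.

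Kinases and phosphatases had 18 rises and 2 falls among 36 tested, 50% and 5.56% beside 23.2% and 17% of all tested genes, with a median of 1.20. The testis-specific serine kinases Tssk2, Tssk3 and Tssk4 reached 77.3 ± 14.5, 45.2 ± 5.93 and 63.8 ± 12.6 RPKM in RS, against 3.85 ± 2.58, 1.71 ± 1.13 and 1.73 ± 1.15 RPKM in PD. Their log2 changes were 4.50 ± 0.39, 4.90 ± 0.38 and 5.37 ± 0.39. Stk33 was level at 195 ± 8.50 RPKM in RS and 188 ± 14.8 RPKM in PD. The polarity kinase Mark2 fell to 1.25 ± 0.237 RPKM in RS against 11.7 ± 1.39 RPKM in PD.

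Glycolytic genes had 9 rises and 1 fall among 24 tested, 37.5% and 4.17% beside 23.2% and 17% of all tested genes, but 6 rises and 2 falls after median centring. The largest rises in the list were of germ cell isoforms and retrocopies. Aldoart1 and Aldoart2, retrocopies of the aldolase A gene, had log2 changes of 5.46 ± 0.38 and 5.06 ± 0.35, and Gapdhs, the sperm form of GAPDH, had 36.2, 55.6 and 54.5 RPKM in RS and 2.80, 3.06 and 6.43 RPKM in PD. Ldhc, the sperm lactate dehydrogenase, was among the most abundant messages at 2584 ± 143 RPKM in RS and 2809 ± 94.9 RPKM in PD and was not called. The glucose transporter Slc2a3 fell to 184 ± 14.8 RPKM in RS against 437 ± 24.1 RPKM in PD, a log2 change of -1.25 ± 0.10, though not in the fit of all 15 libraries. Respiratory chain genes hardly moved by the rule, with 1 rise and 3 falls among 70 tested, 1.43% and 4.29% beside the same 23.2% and 17%. Their median was -0.35, and 10 fell after median centring and 8 without PD replicate 3. Ribosomal protein genes had 0 rises and 5 falls (6.33%) among 79 tested and a median of -0.30, and 7 fell without PD replicate 3. Their near-identical copies make single members uncertain.

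**Figure D3:**
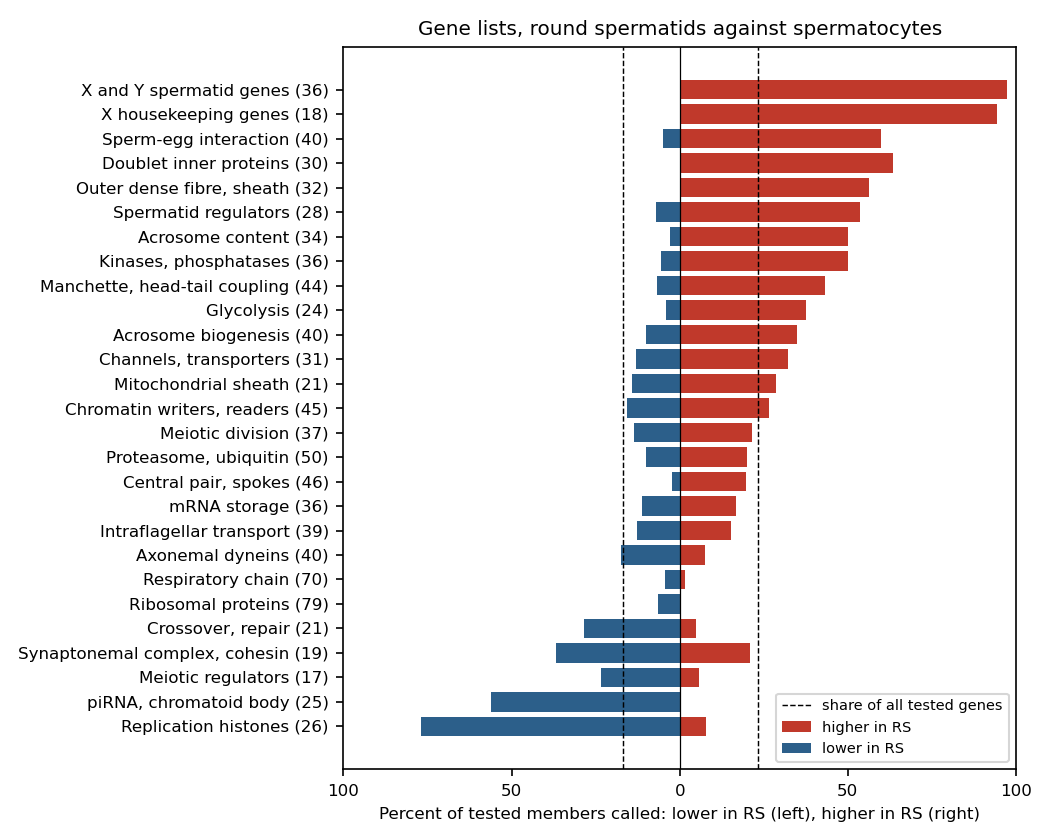
Percent of tested members called higher (red, right) and lower (blue, left) in RS for 27 gene lists, with the number tested in brackets, and dashed lines at the 23.2% and 17% of all tested genes. X housekeeping genes reach 94.4% higher and sex-linked spermatid genes 97.2%. Of the 245 tested X genes, 224 were under 1 RPKM in every PD library and so had to be higher in RS. The piRNA and chromatoid body genes reach 56% lower and replication-dependent histone genes 76.9% lower.

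Protamine and transition protein genes rose, 5 of 5, beside 23.2% of all tested genes. Tnp1 had 219, 352 and 530 RPKM in RS and 23.1, 19.9 and 73.7 RPKM in PD, and Prm1 had 124, 152 and 234 RPKM in RS and 13.7, 11.6 and 46.2 RPKM in PD. RS libraries were all above PD libraries for both genes, but each group spread widely, with PD replicate 3 more than any other PD library. The log2 changes were 3.41 ± 0.50 for Tnp1 and 3.08 ± 0.49 for Prm1. Mean levels in EES were 27740 and 20450 RPKM, so the RS levels are small beside those of elongating spermatids. LZ libraries, which precede both groups, averaged 268 and 211 RPKM for these genes, which are known as spermatid genes, and the part of RNA from late spermatids in any of the sorted groups was not tested.

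Replication-dependent histone genes mostly fell, and the linker histone H1f6 had a large fall. H1f6, the testis-specific H1t, had 11.1, 13.5 and 8.79 RPKM in RS and 1339, 1175 and 738 RPKM in PD, a log2 change of -6.58 ± 0.24. The testis H2B gene H2bc1 had 8.40, 23.9 and 6.94 RPKM in RS and 1440, 1067 and 588 RPKM in PD, and its neighbour on chromosome 13, H2ac1, had 3.30, 4.82 and 2.50 RPKM in RS and 151, 114 and 66.5 RPKM in PD. Levels of all 3 were lowest in PD replicate 3 among PD libraries, and the groups did not overlap. Replication-dependent histone genes had 20 falls and 2 rises among 26 tested, 76.9% and 7.69% beside 17% and 23.2% of all tested genes. Their median was -3.07. H4c8 had 2.35, 1.93 and 1.35 RPKM in RS and 84.0, 60.8 and 38.8 RPKM in PD. The 2 that rose, H2bc22 and H3c1, had log2 changes of 1.02 ± 0.16 and 1.70 ± 0.28, and H2bc22 lost its call without PD replicate 3 (0.89) and under all 3 other scalings. Histone copies are nearly identical, and whether libraries were selected for polyadenylated RNA, which most replication-dependent histone messages lack, is not given in the sources used here.

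Spermatid forms were among the risen histone variants. The list of variants held 7 rises and 7 falls among 20 tested, 35% each, beside 23.2% and 17% of all tested genes. H1f7, a linker histone of elongating spermatids, had 27.8, 34.0 and 42.7 RPKM in RS and 2.24, 2.24 and 6.06 RPKM in PD, a log2 change of 3.45 ± 0.37. H2al2a and H2bl1, an H2A and an H2B variant of the list, reached 19.5 ± 6.14 and 28.1 ± 7.27 RPKM in RS, against 1.99 ± 1.40 and 2.72 ± 1.42 RPKM in PD. The X-linked H2ab3, a short H2A, reached 12.01 ± 1.33 RPKM in RS against 1.47 ± 0.358 RPKM in PD. In EES it had 0.0952 to 7.68 RPKM, whereas H1f7, H2al2a and H2bl1 averaged 1694, 1339 and 1300 RPKM there. The EES libraries were unlike each other, with round spermatid markers summing to 1183 RPKM in EES replicate 2 and to 121 and 192 RPKM in replicates 1 and 3. H3f3a, an H3.3 gene, had 63.7 ± 16.97 RPKM in RS and 41.1 ± 5.48 RPKM in PD and was not called.

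Among 45 tested chromatin writers, readers and erasers, 12 rose and 7 fell, close to the shares of all tested genes, with a median of 0.07 that was -0.10 after median centring. The acetyltransferase Kat2b had 9.41, 7.21 and 10.1 RPKM in RS and 0.157, 0.111 and 0.383 RPKM in PD. The maintenance DNA methyltransferase Dnmt1 had 0.996, 1.79 and 1.26 RPKM in RS and 11.7, 13.6 and 11.1 RPKM in PD. The H3K9 methyltransferases Suv39h1, on the X chromosome, and Suv39h2 both rose, to 1.09 ± 0.0955 and 7.60 ± 0.546 RPKM in RS against 0.0549 ± 0.0119 and 0.493 ± 0.0517 RPKM in PD.

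The piRNA pathway and chromatoid body held no rise among 25 tested genes, and 14 fell, 56% beside 17% of all tested genes, with a median of -1.09. Piwil1 (MIWI), which binds pachytene piRNAs and whose promoter is printed above, had 12.6, 19.02 and 13 RPKM in RS and 106, 127 and 104 RPKM in PD. Tdrd5, needed for piRNA precursor processing, had 3.14, 3.20 and 2.72 RPKM in RS and 33.8, 36.1 and 30.8 RPKM in PD, and Tdrd1 had 6.03, 8.16 and 7.01 RPKM in RS and 60.8, 59.5 and 45.6 RPKM in PD. No library of one group reached the other for these 3 genes, and the log2 changes were -2.94 ± 0.18, -3.47 ± 0.13 and -2.97 ± 0.16. Pld6, the mitochondrial nuclease of piRNA biogenesis, and Piwil2 (MILI) fell by 1.98 and 1.84 on the log2 scale. Members that did not fall include chromatoid body components: Mael had 896, 678 and 747 RPKM in RS and 820, 664 and 646 RPKM in PD, and Ddx4 had 162, 118 and 189 RPKM in RS and 134, 141 and 154 RPKM in PD. Tdrd6, a scaffold of the chromatoid body, had 261 ± 48.1 RPKM in RS and 256 ± 25.8 RPKM in PD, and Tdrd7 had 177 ± 8.23 RPKM in RS and 103 ± 9.96 RPKM in PD, a log2 change of 0.79 ± 0.11 that was not called.

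Genes of the synaptonemal complex and cohesin had 7 falls and 4 rises among 19 tested, and 9 fell without PD replicate 3. The shares were 36.8% and 21.05% beside 17% and 23.2% of all tested genes, so the share of rises was near the background. The axial proteins Sycp2 and Sycp3 fell to 27.3 ± 8.51 and 50.4 ± 16.1 RPKM in RS, against 91.7 ± 4.29 and 123 ± 13.3 RPKM in PD. The 4 that rose encode cohesin subunits. Rec8, the meiotic kleisin that holds sister chromatids until the second division, had 23.4, 31.9 and 25.4 RPKM in RS and 0.306, 0.373 and 0.863 RPKM in PD, and 2.28 RPKM on average in LZ. Its log2 change of 5.82 ± 0.35 is among those of the most spermatid-enriched genes. Smc3 and the X-linked Stag2 rose to 12.5 ± 4.81 and 2.92 ± 1.16 RPKM in RS, against 1.62 ± 0.839 and 0.136 ± 0.0505 RPKM in PD. The remaining one, Rad21, had a log2 change of 1.04 ± 0.15 and lost its call after median centring and without PD replicate 1 (0.98). Crossover and repair genes had 6 falls and 1 rise among 21 tested, 28.6% and 4.76% beside the same 17% and 23.2%. Cdk2, which marks crossover sites and telomeres in spermatocytes, had 2.79, 3.997 and 2.91 RPKM in RS and 24.1, 24.1 and 26.2 RPKM in PD, and the rise was Brca1, with 3.53, 2.97 and 4.16 RPKM in RS and 0.553, 0.580 and 0.495 RPKM in PD.

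Genes of the meiotic divisions had 8 rises and 5 falls among 37 tested, 21.6% and 13.5%, near the 23.2% and 17% of all tested genes, and 12 rises without PD replicate 3. Ccnb1, cyclin B1, had 66.6, 44.2 and 46.2 RPKM in RS and 7.67, 7.39 and 10.98 RPKM in PD. Cdc25c, the phosphatase that activates CDK1, had 9.93, 10.8 and 11.03 RPKM in RS and 1.23, 1.10 and 1.69 RPKM in PD, and Ccna1, the meiotic cyclin A1, had 316, 255 and 251 RPKM in RS and 103, 93.0 and 139 RPKM in PD. All 3 were higher in every RS library, with log2 changes of 2.59 ± 0.21, 2.99 ± 0.18 and 1.31 ± 0.17, and Plk1, the polo kinase, rose by 1.99 ± 0.17. Cks2, a small subunit of CDK complexes needed for male meiosis, moved against them with 7.78, 9.05 and 7.14 RPKM in RS and 122, 114 and 96.4 RPKM in PD, a log2 change of -3.79 ± 0.14. The spindle checkpoint gene Mad2l1 fell to 0.148 ± 0.0224 RPKM in RS against 1.72 ± 0.366 RPKM in PD. Meiotic transcription factors had 4 falls, led by Pou5f2, and 1 rise among 17 tested, 23.5% and 5.88% beside 17% and 23.2% of all tested genes. Mybl1, the A-MYB factor of pachytene, fell by 1.10 ± 0.27 on the log2 scale, a call that was lost without RS replicate 2, where the change was -0.74.

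Control of stored messages gave 6 rises and 4 falls among 36 tested, below the background in both directions. The poly(A)-binding protein partner Paip1, an activator of translation, fell to 2.47 ± 0.471 RPKM in RS against 24.9 ± 2.09 RPKM in PD. Its counterparts Paip2 and Paip2b, which repress translation, rose to 17.3 ± 1.64 and 6.73 ± 0.494 RPKM in RS against 6.81 ± 0.252 and 0.686 ± 0.0782 RPKM in PD. Ybx3, a storage protein of germ cell messages, was level at 571 ± 43.5 RPKM in RS and 624 ± 24.4 RPKM in PD. In the proteasome and ubiquitin list, 10 rose and 5 fell among 50 tested, 20% and 10% beside 23.2% and 17% of all tested genes. The meiotic proteasome subunit Psma8 fell to 19.8 ± 3.803 RPKM in RS against 77.3 ± 11.8 RPKM in PD, and Klhl10, an adaptor of a spermatid ubiquitin ligase, rose to 86.2 ± 13.3 RPKM in RS against 3.00 ± 1.84 RPKM in PD. Heat shock genes had 7 rises and 1 fall among 34 tested, 20.6% and 2.94%, and Hspa2, the meiotic HSP70, was level at 688 ± 71.6 RPKM in RS and 645 ± 24.5 RPKM in PD. Mitochondrial sheath genes had 6 rises and 3 falls among 21 tested, 28.6% and 14.3%, near those shares.

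Outside these lists, Mgll, monoglyceride lipase, had 4.68, 6.27 and 5.34 RPKM in RS and 63.1, 61.3 and 51.5 RPKM in PD. Pcbp1, an RNA-binding protein, had 3.42, 4.78 and 3.29 RPKM in RS and 46.0, 53.0 and 44.6 RPKM in PD. Calm2, a calmodulin gene, had 89.9, 86.6 and 78.7 RPKM in RS and 647, 645 and 609 RPKM in PD, a log2 change of -2.90 ± 0.10. All 3 separated the groups with little spread.

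Speer genes, a testis-specific family, and testis serine proteases had 18 rises and 2 falls among 27 tested, 66.7% and 7.41% beside 23.2% and 17% of all tested genes. Speer4b had 21.9, 24.7 and 22.4 RPKM in RS and 0.141, 0.265 and 0.552 RPKM in PD, and Speer4a, Speer4e and Speer4f1 had log2 changes of 6.31, 5.47 and 5.77. Speer1 had 17.2, 20.6 and 16.3 RPKM in RS and 62.7, 62.1 and 64.9 RPKM in PD and so went the other way, although it was not called in the fit of all 15 libraries. Speer4 levels were low in EES, with 1.66 RPKM for Speer4b. Copies are nearly identical and the values of single members are uncertain.

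Genes on the X chromosome rose almost without exception. Of 1051 listed X genes, 245 were tested, and 244 of them rose and 0 fell, a share of 99.6% beside 23.2% of all tested genes. On autosomes, 2202 of 10368 tested genes rose and 1808 fell. The X genes had a median log2 fold change of 4.88 with quartiles of 4.29 and 5.41, and the median stayed at 4.71 after median centring and 3.68 after quantile normalization. Most passed the filter through RS, since 224 of the 245 were under 1 RPKM in every PD library, and those had to be higher in RS. Counts over all listed X genes, tested or not, point the same way. A mean of at least 1 RPKM, the level used in the filter, was reached by 270 X genes in RS and 12 in PD. At least 10 RPKM was reached by 48 in RS and 0 in PD. On autosomes, 9809 genes reached 1 RPKM in RS and 9284 in PD, and 4145 and 3960 reached 10 RPKM. Of the 806 X genes that were not tested, 579 had the higher mean in RS, 74 had it in PD and 153 were at 0 in both. The same split was not counted for untested autosomal genes, so it has no background here. Of all reads in genes, X genes held 0.516, 0.428 and 0.539% in RS and 0.0175, 0.0187 and 0.0329% in PD. They held 2.49, 2.03 and 1.35% in LZ libraries, so the share in RS remained below that of LZ.

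**Figure D4:**
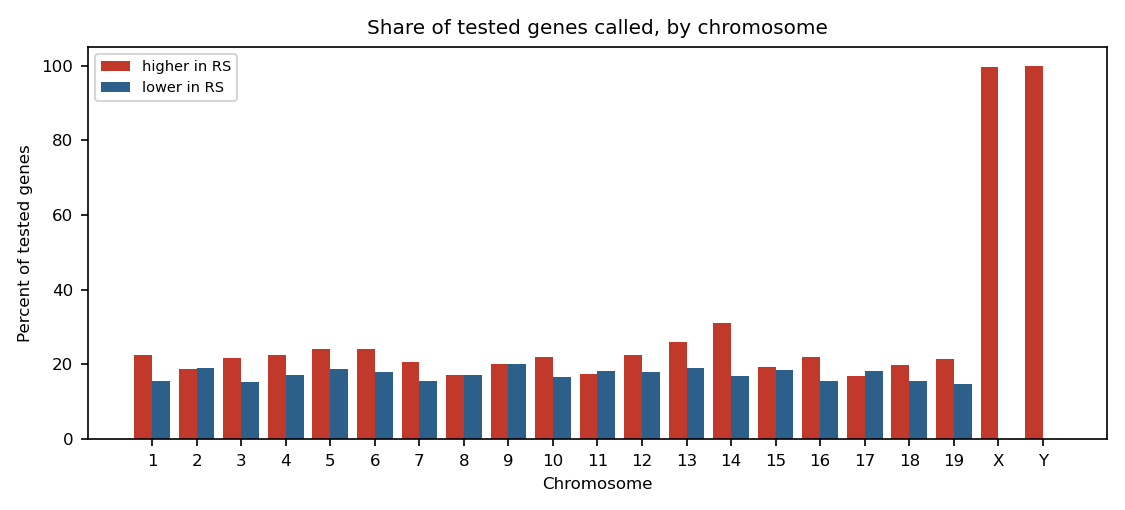
Percent of tested genes called higher (red, left bar) and lower (blue, right bar) in RS for each chromosome. Autosomes range from 16.9% to 31.1% higher, chromosome 14 being the highest, whereas X reaches 99.6% and Y 100%, with none lower. Most tested X genes and all tested Y genes passed the filter through RS and had to be higher there.

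X genes were also set beside their LZ levels. Housekeeping genes of the X had 17 rises among 18 tested of 55 listed. Most tested X genes passed the filter through RS and had to be higher there, so this count adds little. The summed level of all 55 housekeeping genes, tested or not, was 82.1, 76.1 and 85.0 RPKM in RS and 10.4, 9.28 and 9.05 RPKM in PD. In LZ it was 649, 475 and 417 RPKM, so the RS sum was higher than in PD and lower than in LZ. Ndufa1, the tested member that did not rise, alone made up 7.11, 5.93 and 3.98 RPKM of the PD sums. It made up 4.11, 3.72 and 2.61 RPKM of the RS sums, so the size of the contrast depends on this gene. Rbm10, a splicing regulator, reached 4.74 ± 0.932 RPKM in RS and 0.0806 ± 0.0560 RPKM in PD, and Ogt, the O-GlcNAc transferase, reached 1.71 ± 0.0874 RPKM in RS and 0.0404 ± 0.00310 RPKM in PD. X and Y genes of spermatids had 35 rises and 0 falls among 36 tested of the 58 found in the table, and the member without a call is autosomal Gykl1. The limit set by the filter applies to this count as well. The following were named after their values were seen. Tsga8, the X gene with the highest RS level, had 151, 131 and 133 RPKM in RS and 5.11, 4.41 and 7.26 RPKM in PD. Ssxb6 had 31.6, 28.1 and 26.6 RPKM in RS and 0.123, 0.268 and 0.548 RPKM in PD.

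Some X genes were near 0 in the stages on both sides of RS. Ssxb1, a homologue of the human SSX cancer-testis antigens, had 34.2, 26.7 and 27.2 RPKM in RS and 0.156, 0.177 and 0.641 RPKM in PD, a log2 change of 6.74 ± 0.47. It averaged 0.138 RPKM in LZ, 0.394 RPKM in EES and 0.368 RPKM in LES. Akap4, the main fibrous sheath protein, had 82.9, 75.6 and 105.1 RPKM in RS and 4.43, 3.46 and 12.3 RPKM in PD, and in contrast averaged 2694 RPKM in EES. Both are X-linked, and their levels outside RS lay far apart. Ssxb copies are close in sequence, so reads may be shared among them.

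Ndufa1, a complex I subunit, was the tested X gene that did not rise. It had 4.11, 3.72 and 2.61 RPKM in RS and 7.11, 5.93 and 3.98 RPKM in PD, and the groups overlapped. Its log2 change of -0.69 ± 0.25 was not called, and its LZ mean was 119 RPKM, so its PD level was also far below that of LZ. On the Y chromosome 17 genes were tested and 17 rose, but 0 Y genes had a mean of 1 RPKM or more in PD, so those tested passed the filter through RS and had to be higher there. Uba1y, a ubiquitin-activating enzyme, had 5.38, 6.45 and 6.65 RPKM in RS and 0.135, 0.107 and 0.275 RPKM in PD, and Ssty2, a multicopy spermiogenesis gene whose copies share reads, had 2.43, 2.06 and 2.94 RPKM in RS and 0.0149, 0.0269 and 0.0719 RPKM in PD. Of all reads in genes, the Y held 0.0258, 0.0191 and 0.0263% in RS and 0.000734, 0.000659 and 0.00120% in PD.

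Autosomal copies of X genes are known to serve spermatocytes while the X is silent, and 17 such copies of 16 X genes were compared. The copies were tested in 17 of 17 cases, and 2 rose, 0 fell and 15 were neither, with a median log2 fold change of -0.03. Of the 16 X parents 4 passed the filter, each through its RS level, so that they had to be higher in RS. Of the parents that were not tested, Pdha1, Rpl36a and Rnf113a1 had the lower mean in RS. Cetn1, the copy of the centrin gene Cetn2, had 532 ± 86.4 RPKM in RS and 583 ± 27.4 RPKM in PD, while Cetn2 had 1.90 ± 0.184 RPKM in RS and 0.0710 ± 0.0381 RPKM in PD. Gk2, a glycerol kinase copy, had 722 ± 49.7 RPKM in RS and 573 ± 52.0 RPKM in PD, a log2 change of 0.34 that was not called, and its parent Gk was at 0.0122 RPKM in RS and 0.00164 RPKM in PD. Pgk2, the phosphoglycerate kinase of sperm, rose to 351 ± 22.6 RPKM in RS against 164 ± 23.8 RPKM in PD, a log2 change of 1.11 ± 0.13 that was 0.93 and no longer called after median centring. Its parent Pgk1 stayed at 0.142 RPKM in RS and 0.0728 RPKM in PD. The 4 parents that rose had RS means of 1.90 to 4.13 RPKM, each below that of its copy.

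**Figure D5:**
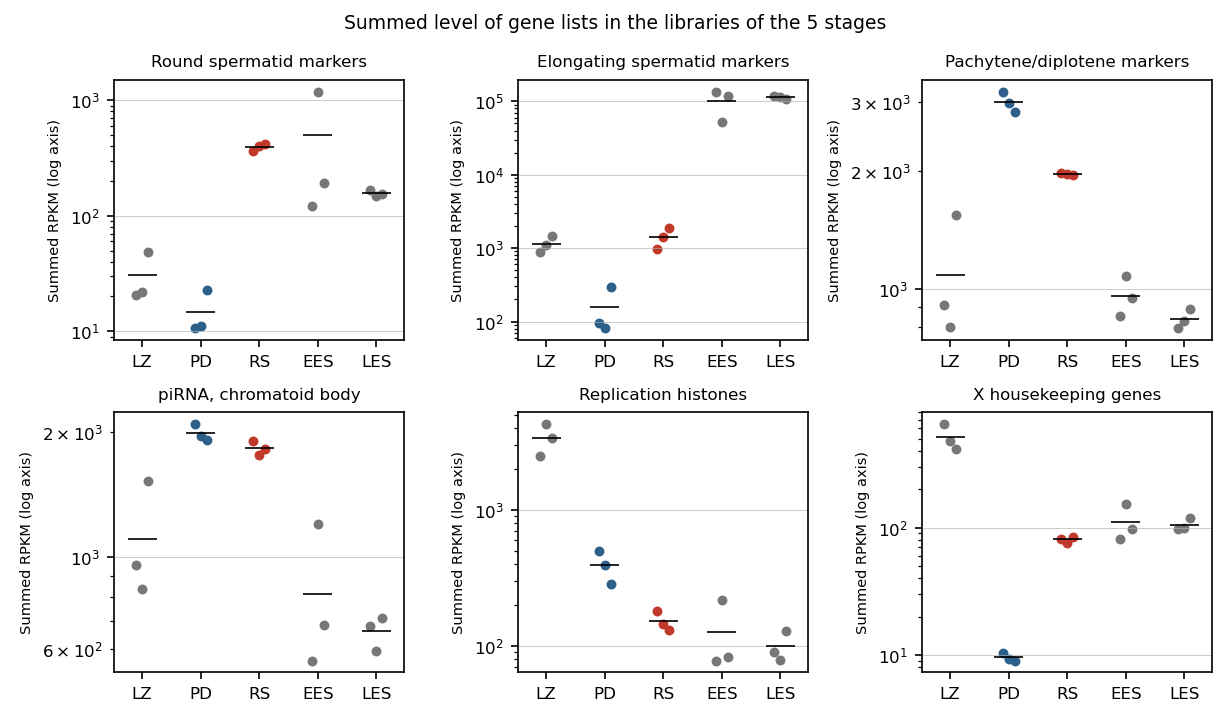
Summed RPKM on log axes for 6 gene lists in the 3 libraries of LZ, PD (blue), RS (red), EES and LES, with a line at the mean. X housekeeping genes are lowest in PD at 9.05 to 10.4 RPKM and reach 76.1 to 85.0 RPKM in RS. Summed piRNA and chromatoid body genes were at 1755 to 1902 RPKM in RS and 1907 to 2087 RPKM in PD. Abundant members without a call, such as Mael and Tdrd6, weigh most in these sums, and 14 of the 25 tested members fell.

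A larger share of long noncoding RNA genes than of protein-coding genes was called, mostly upward, as a description with no test. Of 820 tested, 332 rose and 112 fell, shares of 40.5% and 13.7% beside 23.2% and 17% of all tested genes. Of 9454 protein-coding genes 2060 rose and 1616 fell, which is 21.8% and 17.1%. Noncoding genes that passed the filter through RS alone had to be higher there, and how many did so was not counted. Among the largest rises, 1700120G07Rik had 13.2, 12.7 and 14.3 RPKM in RS and 0.166, 0.0878 and 0.438 RPKM in PD, a log2 change of 6.09 ± 0.47. Among the falls, Gm10619 had 1.83, 1.70 and 1.53 RPKM in RS and 43.7, 44.7 and 46.9 RPKM in PD, a log2 change of -4.74 ± 0.12. Its neighbour on chromosome 7, Gm21269, had 2.24, 2.17 and 1.76 RPKM in RS and 46.9, 48.6 and 44.97 RPKM in PD. Strand use in the counting is not given in the sources used here, so reads of a noncoding gene and an overlapping or antisense gene may not be told apart.

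The de novo table, built by the authors from an assembly of these libraries, held 15116 tested genes of which 3889 rose (25.7%) and 2547 fell (16.8%). A set of 2749 had no GENCODE gene on their strand, and 843 of them rose (30.7%) and 529 fell (19.2%). Those with no gene on either strand (784) gave 310 rises (39.5%) and 191 falls (24.4%). Loci that passed the filter through RS alone had to be higher there, and how many did so was not counted. MSTRG.8333, an unnamed locus opposite to Dct at chr14:118042295-118043606 on the plus strand, had 11.4, 12.3 and 8.60 RPKM in RS and 0.0554, 0.0623 and 0.211 RPKM in PD, a log2 change of 6.71 ± 0.43. MSTRG.24345, at chr8:103797760-103802335 on the minus strand with no gene on either strand, had 10.5, 14.8 and 9.85 RPKM in RS and 0.0635, 0.155 and 0.274 RPKM in PD. Both were near 0 in LZ, at 0.0154 and 0.145 RPKM.

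Long unannotated loci went down as a set, which was grouped by length after the values were seen and so carries no test. All 11 loci with at least 20 kb of exon fell, with a median log2 fold change of -4.67, whereas of the 916 under 1 kb 282 rose and 145 fell. Each of the 11 is a single exon block, of 20.5 to 53.4 kb. MSTRG.11396, at chr17:66204846-66230579 on the plus strand, had 0.248, 0.301 and 0.172 RPKM in RS and 16.9, 16.4 and 16.8 RPKM in PD, a log2 change of -6.10 ± 0.21. MSTRG.5649 and MSTRG.5650 overlap on opposite strands of chromosome 12 (98368655 to 98422100 and 98419645 to 98456224) and had means of 0.731 and 0.340 RPKM in RS and 25.2 and 17.9 RPKM in PD. Over such lengths these levels are many reads: MSTRG.5650 held 4722 reads in RS and 242167 reads in PD, summed over 3 libraries.

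X loci of the de novo table included called falls, which the tested X genes of the gene table did not. Of 318 tested on the X chromosome 280 rose and 8 fell, 88.05% and 2.52% beside 25.7% and 16.8% of all tested de novo genes. X loci that passed the filter through RS alone had to be higher there, and how many did so was not counted. The 8 that fell were single exon blocks, picked out after their values were seen. Except for MSTRG.26499 and MSTRG.26949, they lie on the strand of an annotated gene, such as Tex11 or Llph-ps2. All but MSTRG.26499 had low PD means, of 1.635 to 8.606 RPKM. MSTRG.26499, at chrX:48009973-48010471 with no gene on either strand, had 7.95, 13.1 and 10.1 RPKM in RS and 94.8, 103 and 89.7 RPKM in PD, a log2 change of -3.24 ± 0.18. It was therefore abundant in PD, where 0 annotated X genes reached a mean of 10 RPKM. Short loci of this kind can also take reads that belong to copies elsewhere in the genome, and this was not tested.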

How the data were processed

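RNA-seq of sorted mouse germ cells was read from 2 tables of log2 values, which the authors deposited for GENCODE genes and for de novo assembled genes. The submitters' processing notes name Trim Galore, STAR and the GRCm38/mm10 build, and StringTie 1.3.4d is given per the file headers of the assembly. Positions of assembled transcripts, the other kind of value in use, were taken as the authors deposited them. Read counter, strand setting and any poly(A) selection: not given in the sources used here. These deposited log2 values equal log2(100 × RPKM + 1), so RPKM was recovered and fold changes are on the log2(RPKM + 0.01) scale. Whole reads, within 0.01 read, were recovered for 23714 genes of the gene table, with 879 more at 0 in every library, and for all values of the de novo table. Reads give the depths stated above, and of 24594 gene IDs 24570 matched RefSeq on GRCm38.p6.

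RS and PD libraries were grouped by their labels. Genes with at least 1 RPKM in 3 of 6 libraries were fitted with limma 3.58.1 (R 4.3.3, trended empirical Bayes, all other steps in Python 3.11.15 with pandas 2.3.3 and numpy 2.4.6), and p-values were adjusted by Benjamini-Hochberg over each table. The fit was tested on simulated data. Genes named are the 4 markers, the 12 largest rises and falls, the 10 most abundant called genes of each group, up to 8 called members of each list (up to 4 in the minor direction and 4 not called), the X gene and copy pairs, and the leading noncoding genes and unannotated loci, and others are said to be chosen after their values were seen. The members and lists were chosen with earlier results of these data known. Alternatives changed the filter, pseudocount, scaling, test, libraries and replicate block. Some items are not reported here.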

Additional observations from a re-analysis of the deposited data

How the results depend on the processing

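In the gene table, a 5 RPKM filter left 1301 rises and 943 falls, no filter gave 5481 and 2958, and a pseudocount of 1 RPKM left 1163 falls. In the de novo table, the 5 RPKM filter left 1319 rises and 1063 falls, and the pseudocount of 1 RPKM left 1498 falls. The filter changes how many genes are tested, and for the pseudocount the cause was not tested. Leaving out 1 library at a time gave 2436 to 2527 rises and 1747 to 1906 falls in the gene table, and 3844 to 3987 rises and 2492 to 2666 falls in the de novo table. The other alternatives moved these counts by less than 1.5 times. The replicate numbers were not shown to pair the samples: same-numbered libraries had deviation correlations of 0.20, 0.09 and 0.36, although each library correlated best with its own number. With the replicate block, 2463 genes rose and 1820 fell, and 3890 and 2549 in the de novo table. Of 445 named genes none reversed under any alternative run. Calls were lost by 30 of them when all 15 libraries shared the spread, 25 with a pseudocount of 1 RPKM, 11 after median centring and 9 after quantile normalization, and by 12 without RS replicate 2. Genes that failed the 1 RPKM filter were left out of the main fit by that choice, and the fit with no filter included them. How far depth limits such genes was not tested.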
